A study of Mus musculus with 4 samples.

Results

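The genes described here are 44 genes of glutathione, thioredoxin and NRF2-linked antioxidant defence, chosen by symbol from a fixed list and grouped by the role of their products. All 44 were rows of the deposited table, which holds 52125, and all 44 were among the 18285 genes with enough reads to be tested. The study sequenced RNA of the corpus, the part of the stomach that secretes acid, from wild type C57BL/6 mice aged 6 to 8 weeks. The HDT group, 2 mice, had received 1 intraperitoneal injection of HDT at 5 mg for each 20 g of body weight, which the submitters used to damage the stomach. HDT is commonly short for high-dose tamoxifen in such work, but the labels do not spell it out. The vehicle group, 2 mice, is titled vehicle, although other label texts call these mice untreated, and both groups carry the time 48 hr. Each library came from 1 mouse, so the groups share strain, genotype, age range and tissue.

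Glutathione is a small thiol made from cysteine, glutamate and glycine, and it is kept reduced by glutathione reductase. Peroxidases spend it to remove peroxides and transferases attach it to reactive compounds, while thioredoxin and the peroxiredoxins form a parallel system. The transcription factor NRF2, encoded by Nfe2l2, is held down by KEAP1 in resting cells. In cells under electrophilic or oxidative stress it is released and binds antioxidant response elements at genes of these systems. The stomach corpus has acid-secreting parietal cells rich in mitochondria, and surface mucous cells that face swallowed compounds.

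Depth was 42175023 and 42674985 recovered reads in the HDT libraries and 41536686 and 42104568 in the vehicle libraries. The 20 most abundant genes took 22.3% and 22.0% of reads in HDT libraries and 40.7% and 42.8% in vehicle libraries. Levels are therefore given as CPM, counts per unit of library size (1e6 reads) scaled by TMM, a trimmed mean of gene ratios, with factors of 1.219 and 1.183 for HDT and 0.848 and 0.818 for vehicle. Over all tested genes the median log2 fold change was 0.526 in the values as deposited and -0.001 with TMM, so directions are relative to that shift, and genes whose sign depends on it are pointed out. The corpus markers of parietal cells were present and lower in HDT. The 7 listed genes summed to 1831 and 1473 CPM in HDT libraries and to 11901 and 13047 CPM in vehicle libraries, and 6 of 7 were called lower. Other cell type markers moved too. Of 4 tested chief cell genes 3 were called lower, with sums of 40274 and 29602 CPM in HDT and 141924 and 174340 CPM in vehicle. Of 5 fibroblast genes 4 were called higher, with sums of 1837 and 2072 CPM in HDT and 994 and 979 CPM in vehicle. The 5 surface mucous cell genes summed to 61654 and 75910 CPM in HDT and to 115161 and 111879 CPM in vehicle, and all 5 were called lower with TMM, 1 of 5 at the deposited scaling and 2 of 5 without either vehicle library. The 7 macrophage genes summed to 406 and 335 CPM in HDT and to 181 and 193 CPM in vehicle, with 5 of 7 called higher, or 3 without vehicle replicate 1. In whole tissue, fewer cells of a type and less RNA per cell cannot be told apart, and the part of these shifts in the results that follow was not tested.

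Of the 44 genes, 20 were called higher in HDT and 12 lower by limma at an adjusted p under 0.05, and 12 had no call. Among all genes tested, 18.4% were called higher and 19.3% lower by the same rule, against 45.5% and 27.3% of the 44. The 44 were chosen with earlier results of these data known, so these shares are description only. The median log2 fold change of the 44 was 0.23. At least 2-fold changes, by unrounded values, were called for 5 genes upward and 2 downward, where all genes gave 4.07% and 4.5%. Gclc and Sod2, whose log2 fold changes round to 1.0 and -1.0, fell just short. Both HDT libraries lay above both vehicle libraries for 26 of the 44 genes and below them for 14, against 35.3% and 35.5% of all genes. Adjusted p-values are those of limma over all tested genes, and fold changes are on the log2(value + 1) scale, HDT over vehicle. With the values scaled as deposited, 34 of the 44 were called higher and 5 lower. All 20 genes called higher with TMM stayed higher, and the 5 called lower under both scalings were Gpx4, Gstm5, Prdx5, Cat and Sod2.

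**Figure D1:**
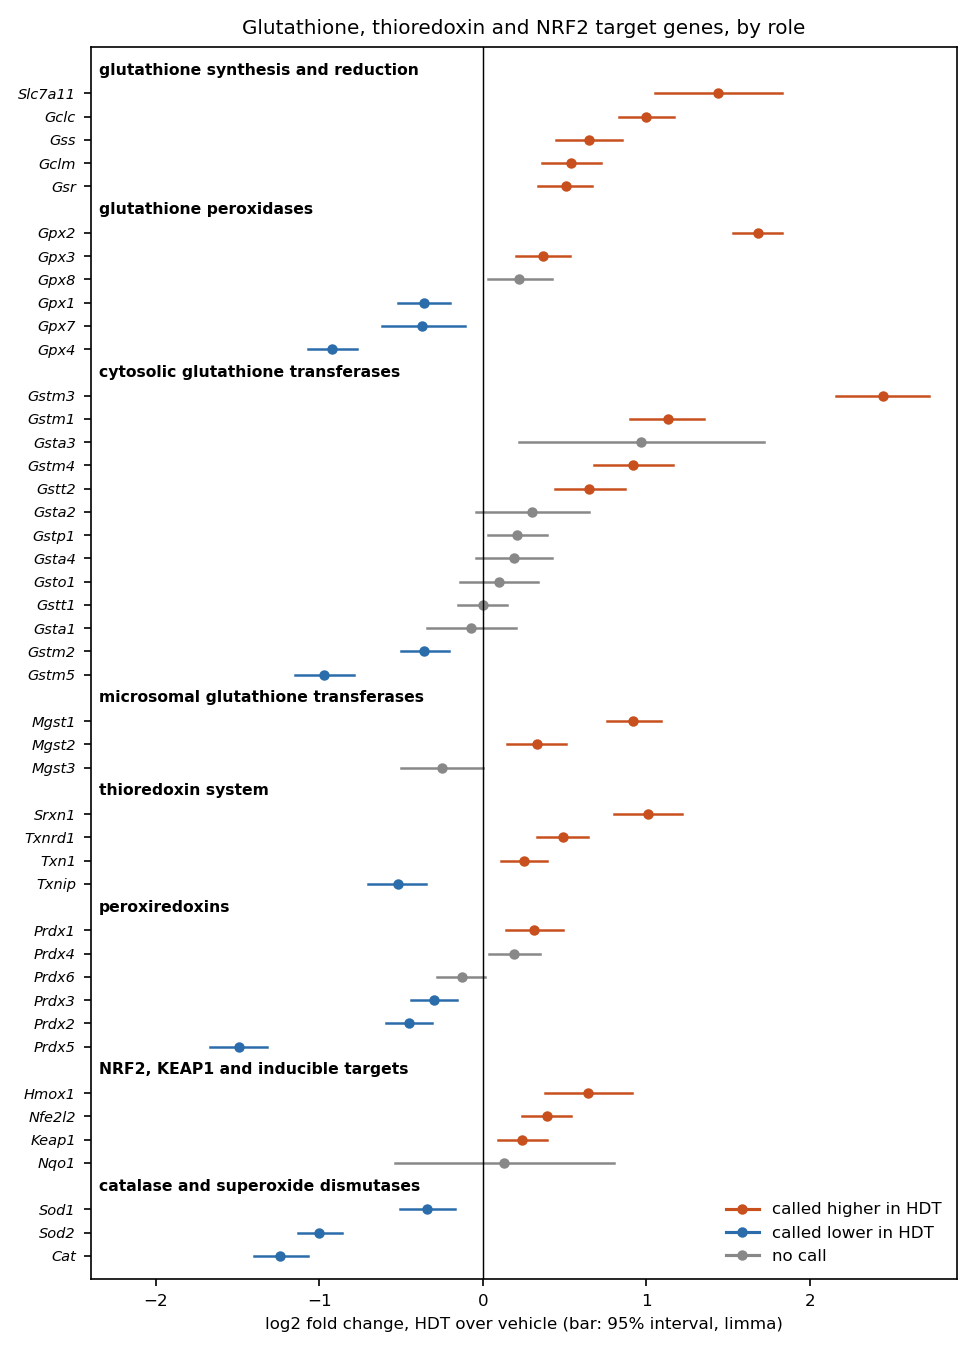
Log2 fold change of each of the 44 genes, HDT over vehicle, with its 95% limma interval, grouped by role and coloured by call. All 5 glutathione synthesis and reduction genes lie right of 0 and all 3 catalase and dismutase genes left of 0 with TMM scaling; the 4 genes of the NRF2 and KEAP1 group also lie right of 0, the other 5 groups hold both signs, and Sod1 has the opposite sign at the deposited scaling.

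Promoter windows from RefSeq, 250 bases before to 50 after a transcription start on GRCm38.p6, matched 38 of the 44 genes by symbol. They were searched on both strands for the core antioxidant response element TGACNNNGC, whose reverse complement is GCNNNGTCA. It occurred in 9 of 38 genes (23.7%), against 16.8% of the 12072 other tested genes with a window and 14% of all 27025 genes with a window. Of genes called higher 6 of 16 held it, of genes called lower 2 of 12, and of genes with no call 1 of 10. Those 9 matches are printed to show which genes carry the element close to a RefSeq start. The 38 genes had 46 windows, so some had several starts. The Txnrd1 and Mgst1 matches lie inside the genes, past their GENCODE M21 starts at chr10:82833951 and chr6:138140316. Each line gives the gene's own strand, with the motif in capitals, and the stretch is shorter where it would run far into the transcript (Srxn1) or past the edge of the window (Nfe2l2).
Srxn1, chr2:152105542-152105570, plus strand: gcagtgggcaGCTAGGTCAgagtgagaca
Mgst1, chr6:138140445-138140505, plus strand: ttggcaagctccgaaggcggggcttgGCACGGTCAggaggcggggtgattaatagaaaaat
Gclm, chr3:122245397-122245457, plus strand: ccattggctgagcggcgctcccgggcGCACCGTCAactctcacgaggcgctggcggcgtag
Txnrd1, chr10:82859088-82859148, plus strand: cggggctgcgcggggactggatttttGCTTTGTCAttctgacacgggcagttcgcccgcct
Nfe2l2, chr2:75704869-75704913, minus strand: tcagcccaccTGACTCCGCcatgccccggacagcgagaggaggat
Prdx1, chr4:116685440-116685500, plus strand: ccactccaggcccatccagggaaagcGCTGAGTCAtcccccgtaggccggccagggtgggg
Gsta3, chr1:21240438-21240498, plus strand: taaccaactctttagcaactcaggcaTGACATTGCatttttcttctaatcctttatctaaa
Sod1, chr16:90220680-90220740, plus strand: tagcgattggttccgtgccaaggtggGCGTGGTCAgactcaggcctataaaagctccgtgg
Gstm5, chr3:107895786-107895846, plus strand: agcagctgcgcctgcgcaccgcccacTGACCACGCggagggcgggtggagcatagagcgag
Srxn1, Mgst1, Gclm, Txnrd1, Nfe2l2 and Prdx1 were called higher, Gsta3 had no call, and Sod1 and Gstm5 were called lower. The Prdx1 match also holds the AP-1 heptamer TGACTCA, read on the opposite strand. A longer consensus of the element, with a purine added at each end and C or G allowed in place of the inner C, occurred in 10.5% of the 38 genes and in 9.65% of the other tested genes. It was in 2 of 16 genes called higher, 0 of 12 called lower and 2 of 10 with no call, so the split by call differed from that of the core. A match is a description of the letters only, and elements outside these windows were not searched.

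The RNA of the listed glutathione synthesis and recycling genes rose as a group. All 5 genes were called higher, with a median log2 fold change of 0.65, and their summed level was 612 and 676 CPM in HDT libraries against 384 and 397 CPM in vehicle libraries. Slc7a11 (chr3:49892526-50443614, minus strand, GRCm38), the light chain of the transporter that brings in cystine, was at 14.1 and 13.5 CPM in HDT and 6.05 and 4.24 CPM in vehicle. The log2 fold change was 1.44 (SE 0.167, limma adjusted p = 0.000518), and it was by far the lowest of the 5 in level, at 0.99 CPM per kb of exon in HDT and 0.37 in vehicle. Gclc (chr9:77754535-77794485, plus strand), the catalytic subunit of glutamate-cysteine ligase, the first and limiting step of synthesis, was at 229 and 244 CPM in HDT and 112 and 125 CPM in vehicle. The HDT mean was about 2-fold the vehicle mean (log2 fold change 1.0, SE 0.073, limma adjusted p = 4.19e-05). Gclm, the regulatory subunit of that ligase, was at 100.1 and 112 CPM in HDT and 69.8 and 76.5 CPM in vehicle, a smaller log2 fold change of 0.54 with an interval of 0.36 to 0.72 that lies below that of Gclc, 0.83 to 1.17. Gss, the synthetase of the second step, was at 108 and 128 CPM in HDT and 76.1 and 73.6 CPM in vehicle. Gsr, the reductase that regenerates glutathione with NADPH, was at 160.2 and 178 CPM in HDT and 120.3 and 118 CPM in vehicle. In each of the 5 both HDT libraries stood above both vehicle libraries. Exons of Gclm and Gss overlap genes on the opposite strand in GENCODE M21, and no strand setting is given in the sources used here. Gclm also overlaps Gm6061 on the same strand by 244 exon bases. Reads of the overlapping parts therefore cannot be assigned.

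**Figure D2:**
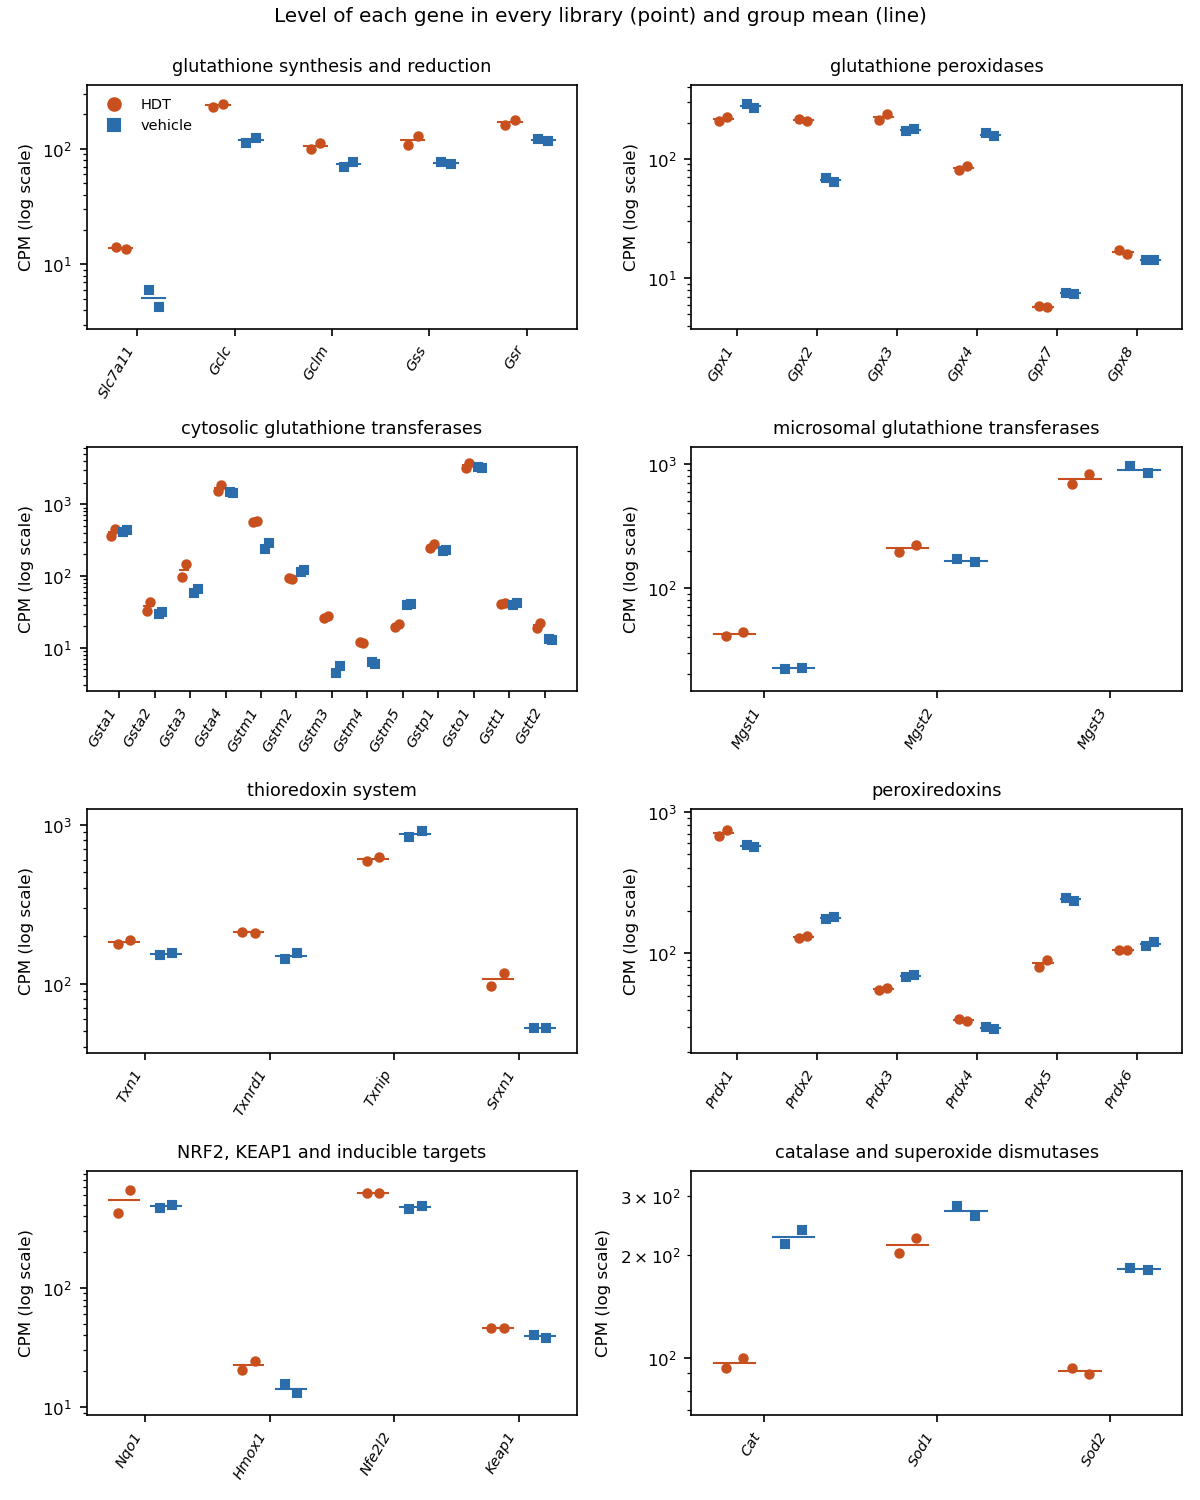
CPM of each gene on a log scale, with 1 point for each HDT (left) and vehicle (right) library and a line at each group mean, in 8 panels by role. The libraries of a group lie close together for most genes, while the HDT points of Nqo1 (429 and 660 CPM) and Gsta3 (97.9 and 148 CPM) are far apart.

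The glutathione peroxidases, which reduce hydrogen peroxide and lipid peroxides, moved in both directions: 2 of 6 were called higher, 3 lower and 1 had no call. Gpx2 (chr12:76792333-76795554, minus strand), the selenoenzyme of the digestive epithelium, was at 216 and 207 CPM in HDT and 68.6 and 63.8 CPM in vehicle, with no overlap. A log2 fold change of 1.68 (SE 0.065, limma adjusted p = 2.41e-06) placed it above of 98.5% of tested genes. Gpx3, the secreted plasma form, was at 211 and 236 CPM in HDT and 170.4 and 176 CPM in vehicle (log2 fold change 0.37, limma adjusted p = 0.00531). Gpx4, which reduces lipid hydroperoxides in membranes, went the other way, with 81.0 and 87.2 CPM in HDT and 162 and 156 CPM in vehicle. The difference on the log2 scale was -0.92 (SE 0.065, limma adjusted p = 3.59e-05), and 34.7% of the 50-base words of its transcripts also occur in a pseudogene, Gpx4-ps2. Gpx1, the widespread cytosolic form, was at 208 and 222 CPM in HDT and 285 and 265 CPM in vehicle. Its log2 fold change of -0.36 was 0.18 at the deposited scaling, and the call was lost once vehicle replicate 1 was left out (-0.30, limma adjusted p = 0.0612). Gpx7, of the endoplasmic reticulum, was the lowest in level, at 5.83 and 5.73 CPM in HDT and 7.5 and 7.4 CPM in vehicle. The call (log2 fold change -0.37, limma adjusted p = 0.0344) was lost when any 1 of the 4 libraries was left out, with limma adjusted p between 0.0846 and 0.137. At the deposited scaling its log2 fold change was 0.17. Gpx8, also of the endoplasmic reticulum, had 17.3 and 15.9 CPM in HDT and 14.2 and 14.3 CPM in vehicle without a call (limma adjusted p = 0.0749). Per kb of exon, Gpx2 made up 16.9% and 15.4% of the 6 genes' summed level in HDT and 4.99% and 4.82% in vehicle, while Gpx4 made up 11.9% and 12.1% in HDT and 22.1% and 22.0% in vehicle. Red blood cells contain much Gpx1 and Prdx2 protein, and the 5 red cell marker genes summed to 18.5 and 12.1 CPM in HDT and 58.2 and 65.7 CPM in vehicle, all called lower. The part of red cells in these falls was not tested.

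**Figure D3:**
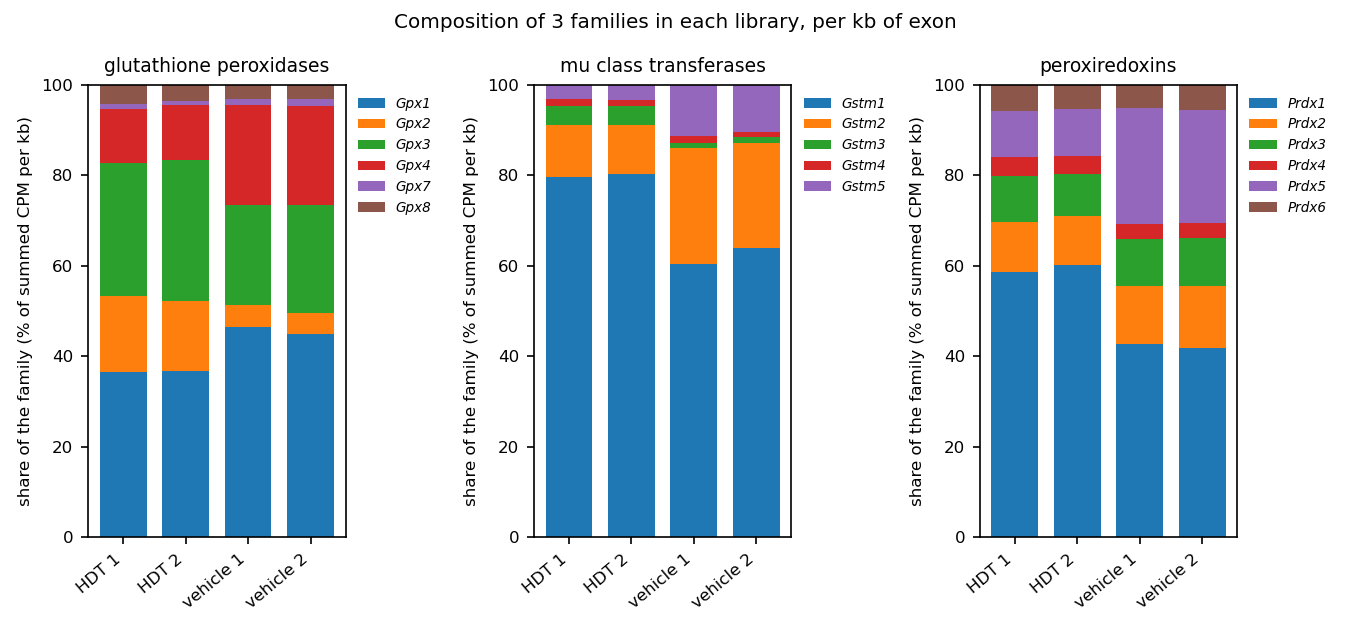
Share of each gene in the summed level per kb of exon of its family, in percent, for the glutathione peroxidases, the mu class transferases and the peroxiredoxins, with HDT libraries at the left. Gpx2, Gstm1 and Prdx1 take larger shares in both HDT libraries, and Gpx4, Gstm2, Gstm5 and Prdx5 smaller ones, than in both vehicle libraries.

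Among the 13 cytosolic glutathione transferases, 4 were called higher, 2 lower and 7 had no call, and the changes at or above 2-fold were in the mu class. Gstm3 (chr3:107963696-107969283, minus strand) had the largest rise of the 44 genes, at 26.4 and 27.5 CPM in HDT and 4.40 and 5.52 CPM in vehicle (5.43-fold, log2 fold change 2.45, SE 0.122, limma adjusted p = 7.26e-06). Gstm1 (chr3:108012255-108017973, minus strand), the most abundant mu class gene per kb, was at 559 and 587 CPM in HDT and 237 and 290.0 CPM in vehicle (log2 fold change 1.13, SE 0.097, limma adjusted p = 0.000124). Gstm4 was at 11.9 and 11.5 CPM in HDT and 6.36 and 5.98 CPM in vehicle. In these 3 genes no HDT library overlapped a vehicle library. Gstm5 and Gstm2 were called lower. Gstm5 had 19.5 and 21.5 CPM in HDT and 39.1 and 41.3 CPM in vehicle (log2 fold change -0.97, SE 0.078, limma adjusted p = 6.53e-05). Gstm2 had 93.4 and 90.2 CPM in HDT and 114 and 121 CPM in vehicle, a log2 fold change of -0.36 that was 0.18 and called higher at the deposited scaling (limma adjusted p = 0.0338). The 5 mu class genes lie on chromosome 3 in 1 cluster of 149.1 kb with Gstm6 and Gstm7 (GRCm38, GENCODE M21). From the first start the order is Gstm5, Gstm7, Gstm6, Gstm3, Gstm2, Gstm1 and Gstm4, so Gstm2, called lower, sits between Gstm3 and Gstm1. Gstm6 had a log2 fold change of 0.70 and was called higher, and Gstm7 had -0.28 with TMM and 0.25 at the deposited scaling, with no call in either. Of the 50-base words of Gstm3 and Gstm1, 28.8% and 18.9% also occur in transcripts of other genes, so some reads could have been split or dropped.

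**Figure D4:**
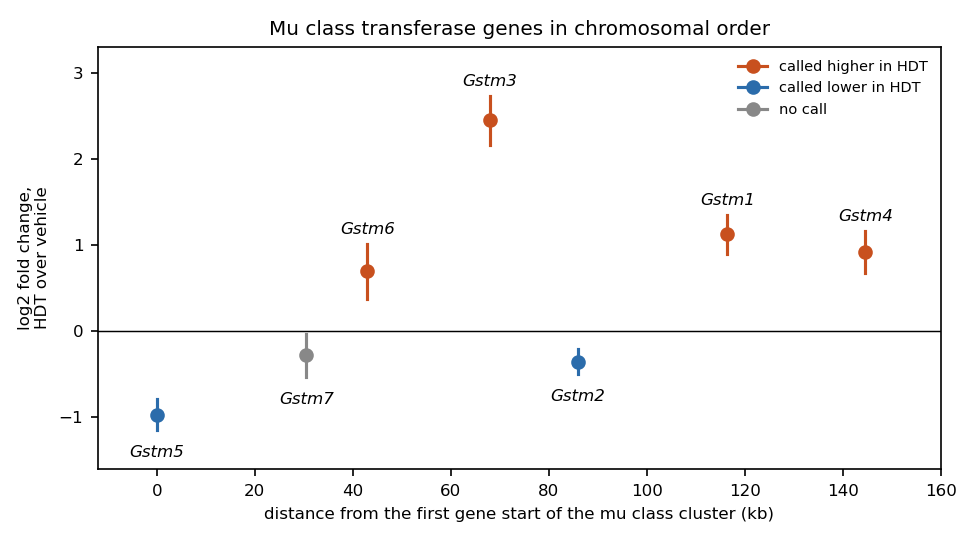
Log2 fold change with 95% limma interval of the 7 mu class genes, placed by distance in kb from the first gene start of the cluster. Neighbouring genes differ: Gstm3 (2.45) and Gstm1 (1.13) stand on either side of Gstm2 (-0.36), and Gstm5 (-0.97) is at the edge, while at the deposited scaling Gstm2 and Gstm7 have a positive sign.

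The most abundant transferases did not pass the test. Gsto1, the omega class enzyme with thioltransferase activity, had the highest level per kb of the 44 genes, 1720 CPM per kb in HDT and 1600 in vehicle. It was at 3174 and 3787 CPM in HDT and 3287 and 3197 CPM in vehicle, so the groups overlapped (log2 fold change 0.10, 95% interval -0.14 to 0.34, limma adjusted p = 0.496). Gsta4, which conjugates 4-hydroxynonenal from lipid peroxidation, was second, with 1510.3 and 1828 CPM in HDT and 1462 and 1450.0 CPM in vehicle (log2 fold change 0.19, limma adjusted p = 0.172). Gsta1 was at 359 and 456 CPM in HDT and 414 and 437 CPM in vehicle, with HDT replicate 1 below and HDT replicate 2 above both vehicle libraries. Its log2 fold change was -0.07 with no call by TMM, and 0.46, called higher, at the deposited scaling (limma adjusted p = 0.00321). Of its 50-base words 90.5% are shared with other genes, most with Gm3776, so its value is uncertain. Gsta2, which shares 49.8% of its words, had a log2 fold change of 0.30 (limma adjusted p = 0.149). Gsta3 was at 97.9 and 148 CPM in HDT and 57.1 and 66.6 CPM in vehicle, a log2 fold change of 0.97 that missed the threshold (SE 0.25, limma adjusted p = 0.0627). It was called higher by DESeq2 (DESeq2 adjusted p = 0.0057) and with replicate number as a block (limma adjusted p = 0.00236). The same held with a filter of 1 CPM in 2 libraries (limma adjusted p = 0.0498) and at the deposited scaling (limma adjusted p = 0.0129). There was no call by edgeR, with DESeq2 size factors or with pseudocounts of 0.5 and 5. The log2 fold change of Gsta3 was 1.27 without HDT replicate 1 and 0.69 without HDT replicate 2. Each of these fits takes its spread from the vehicle libraries alone. Gstp1, the pi class enzyme, was at 245 and 280.0 CPM in HDT and 221 and 232 CPM in vehicle (log2 fold change 0.21, limma adjusted p = 0.0707), and 33.7% of its words occur in Gstp2. Of the theta class genes among the 44, Gstt2 rose (log2 fold change 0.65, SE 0.094, limma adjusted p = 0.00113), with 19.1 and 22.0 CPM in HDT and 13.0 and 13.0 CPM in vehicle. Gstt1, on the same stretch of chromosome 10, had 40.6 and 41.4 CPM in HDT and 39.7 and 42.3 CPM in vehicle, with an interval of -0.15 to 0.15. Gstt3, a theta class gene of that stretch outside the 44, was called higher (log2 fold change 0.31, limma adjusted p = 0.0053).

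Several of these genes were higher in HDT replicate 2 than in HDT replicate 1. This held for 34 of the 44 genes, against 49.4% of all tested genes, and in 7 genes the ratio was at least 1.2. Nqo1 had the largest ratio, 1.54, followed by Gsta3 with 1.51, Gsta2 with 1.34 and Gsta1 with 1.27. The surface mucous cell genes were also higher in HDT replicate 2, at 75910 against 61654 CPM in sum, and their part in this spread was not tested. Without HDT replicate 1, log2 fold changes were 0.52 for Gsta2, 0.34 for Gsta4, 0.31 for Gstp1, 0.23 for Gsto1 and 0.45 for Nqo1. Without HDT replicate 2, they were -0.23 for Gsta1 and -0.37 for Mgst3. Such shifts follow from the order of the HDT libraries. A fit with 1 HDT library takes its spread from the vehicle libraries alone, so it leaves out the difference between HDT libraries.

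Of the 3 microsomal transferases, membrane enzymes that act on lipid substrates, Mgst1 and Mgst2 rose. Mgst1 was at 40.9 and 44 CPM in HDT and 22.2 and 22.5 CPM in vehicle (log2 fold change 0.92, SE 0.070, limma adjusted p = 5.04e-05). Mgst2 was at 195 and 222 CPM in HDT and 170.2 and 161 CPM in vehicle (log2 fold change 0.33, limma adjusted p = 0.0121), a call lost on leaving out vehicle replicate 2 (0.29, limma adjusted p = 0.0886). Mgst3, which held 89.6% and 90.2% of the summed level per kb of the 3 in HDT and 93.9% and 93.4% in vehicle, was at 688 and 831 CPM in HDT and 960.2 and 844 CPM in vehicle. Its log2 fold change was -0.25 with no call and 0.28, called higher, at the deposited scaling (limma adjusted p = 0.0469).

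In the thioredoxin system, 3 of 4 genes were called higher and 1 lower. Srxn1 (chr2:152105516-152111376, plus strand), sulfiredoxin, which repairs over-oxidised peroxiredoxins, was at 97.3 and 117 CPM in HDT and 52.9 and 53.0 CPM in vehicle. With a log2 fold change of 1.01 (SE 0.089, limma adjusted p = 0.000113), both HDT libraries were above both vehicle libraries. Txnrd1, the cytosolic reductase that recharges thioredoxin, was at 211 and 209 CPM in HDT and 144 and 157 CPM in vehicle (log2 fold change 0.49, limma adjusted p = 0.000859). Txn1, thioredoxin itself, was at 179 and 187 CPM in HDT and 151 and 156 CPM in vehicle, a log2 fold change of 0.25 (limma adjusted p = 0.0139). This call was lost on leaving out vehicle replicate 1 (0.23, limma adjusted p = 0.139), and likewise for vehicle replicate 2 (0.27, limma adjusted p = 0.076). Txnip, which binds and inhibits thioredoxin and limits glucose uptake, was called lower, with 588 and 624 CPM in HDT and 830.0 and 911 CPM in vehicle. Its log2 fold change of -0.52 (SE 0.076, limma adjusted p = 0.00118) was 0.01 at the deposited scaling, and 606 bases of its exons overlap Gm15441 on the opposite strand.

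The 6 peroxiredoxins, thiol peroxidases charged mostly by thioredoxin, divided into 1 gene called higher, 3 called lower and 2 with no call. Prdx1, the most abundant of them per kb, was at 668 and 744 CPM in HDT and 578 and 558 CPM in vehicle (log2 fold change 0.31, limma adjusted p = 0.0136). Prdx1 lost its call on leaving out vehicle replicate 1 (0.34, limma adjusted p = 0.0881), and likewise for vehicle replicate 2 (0.29, limma adjusted p = 0.149). Prdx5 (chr19:6906697-6910106, minus strand), found in mitochondria, peroxisomes and cytosol, had the largest fall of the 44 genes, at 80.4 and 90.4 CPM in HDT and 247 and 234 CPM in vehicle. Its HDT mean was 0.355 times the vehicle mean (log2 fold change -1.49, SE 0.074, limma adjusted p = 7.26e-06), and only 2.4% of tested genes had a lower value. Prdx5 overlaps Trmt112 on the opposite strand by 409 exon bases. Prdx2, the cytosolic form, had 128 and 133 CPM in HDT and 175 and 181 CPM in vehicle, and Prdx3, the mitochondrial form, had 55.5 and 56.7 CPM in HDT and 68.4 and 70.0 CPM in vehicle. Both were called lower with TMM, at log2 fold changes of -0.45 (limma adjusted p = 0.000791) and -0.30 (limma adjusted p = 0.0054). At the deposited scaling Prdx2 had 0.08 with no call, and Prdx3 had 0.23 and was called higher (limma adjusted p = 0.00898). Exons of Prdx2 overlap Junb by 173 bases and Rnaseh2a by 177 bases on the opposite strand. Prdx4, of the secretory pathway, was just short of a call at 34.5 and 33.5 CPM in HDT and 30.2 and 29.2 CPM in vehicle (log2 fold change 0.19, limma adjusted p = 0.0516). Prdx6, which uses glutathione, had a log2 fold change of -0.13 (limma adjusted p = 0.138) that was 0.40 and called higher at the deposited scaling. Per kb of exon, Prdx1 made up 58.5% and 60.2% of the summed level of the 6 in HDT and 42.6% and 41.9% in vehicle, and Prdx5 made up 10% and 10.4% in HDT and 25.8% and 25% in vehicle.

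Catalase and both superoxide dismutases were called lower with TMM, and their summed level was 390 and 414 CPM in HDT libraries against 679 and 681 CPM in vehicle libraries. Cat (chr2:103453849-103485160, minus strand), the peroxisomal enzyme that splits hydrogen peroxide, was at 93.0 and 99.6 CPM in HDT and 216 and 238 CPM in vehicle (log2 fold change -1.24, SE 0.072, limma adjusted p = 1.41e-05). Sod2, the manganese dismutase of the mitochondrial matrix, was at 93.3 and 89.7 CPM in HDT and 184 and 182 CPM in vehicle (log2 fold change -1.0, SE 0.059, limma adjusted p = 1.51e-05). For both genes the HDT libraries were far below the vehicle libraries, which did not overlap with them. Sod1, the cytosolic copper and zinc form, was at 203 and 225 CPM in HDT and 279.7 and 261 CPM in vehicle. Its log2 fold change of -0.34 (limma adjusted p = 0.00824) was 0.20 and called higher in the values as deposited (limma adjusted p = 0.0397). On leaving out vehicle replicate 1 the call was lost (-0.29, limma adjusted p = 0.0821). Parietal cells hold many mitochondria, and their defining pump genes moved with these falls: Atp4a had 1109 and 880 CPM in HDT and 6782 and 7649 CPM in vehicle, and Atp4b 563 and 494 CPM in HDT and 4723 and 4974 CPM in vehicle. The part of parietal cells in the lower Prdx5, Cat and Sod2 was not tested.

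Of NRF2, its inhibitor and the usual target genes, Nfe2l2, Keap1 and Hmox1 were called higher and Nqo1 had no call. Nfe2l2 was at 622 and 630.1 CPM in HDT and 463 and 491 CPM in vehicle (log2 fold change 0.39, SE 0.066, limma adjusted p = 0.00244), a call lost on leaving out vehicle replicate 1 (0.35, limma adjusted p = 0.0609). Keap1, the adaptor that marks NRF2 for degradation, was at 46.3 and 46.6 CPM in HDT and 40.8 and 38.0 CPM in vehicle (log2 fold change 0.24, limma adjusted p = 0.0235). Leaving out HDT replicate 1 (0.25, limma adjusted p = 0.0555), or instead vehicle replicate 2 (0.19, limma adjusted p = 0.166) ended the Keap1 call. Of its exons 510 bases overlap Gm16754 on the opposite strand. Hmox1, haem oxygenase, was at 20.7 and 24.3 CPM in HDT and 15.6 and 13.1 CPM in vehicle (log2 fold change 0.64, SE 0.115, limma adjusted p = 0.00349). Macrophages also express Hmox1, and the 7 macrophage genes had log2 fold changes from 0.20 to 1.87, with a median of 0.60. Lyz2 was at 209 and 146 CPM in HDT and 60.9 and 69.0 CPM in vehicle (1.43), while Adgre1 (0.20) and Mrc1 (0.23) had no call. The part of macrophages in the Hmox1 value was not tested. Nqo1, a quinone reductase often read as an NRF2 marker, was at 429 and 660.3 CPM in HDT and 472 and 501 CPM in vehicle. The HDT libraries lay on either side of the vehicle libraries, and the log2 fold change was 0.13 with a wide interval of -0.54 to 0.80 (limma adjusted p = 0.712), -0.16 without HDT replicate 2.

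Genes of the same pathways outside the 44 were counted in 4 lists. These were chosen with earlier results of these data known, so the counts are description only. Of 32 other NRF2 targets, 18 were called higher and 4 lower, with a median log2 fold change of 0.24, beside 18.4% and 19.3% of all genes (27 and 1 at the deposited scaling). The carboxylesterase gene Ces1g was at 11.3 and 10.6 CPM in HDT and 1.65 and 1.51 CPM in vehicle (log2 fold change 2.78), and the aldo-keto reductase Akr1b8 was at 267 and 362 CPM in HDT and 129 and 143 CPM in vehicle (1.19). Fth1, the ferritin heavy chain, was lower, with 643 and 663 CPM in HDT and 1237 and 1267 CPM in vehicle (-0.94). Of 29 tested other glutathione genes, 8 were called higher and 9 lower, with a median of -0.09 (17 and 5 at the deposited scaling). The mitochondrial transferase Gstk1 had 56.6 and 62.9 CPM in HDT and 143 and 142 CPM in vehicle (-1.26), and the glyoxalase Hagh had 17 and 14.8 CPM in HDT and 33.5 and 32.8 CPM in vehicle (-1.06). The aminopeptidase Anpep rose, with 481 and 346 CPM in HDT and 183 and 226 CPM in vehicle (1.0). Of 20 other thioredoxin and methionine sulfoxide genes, 1 was called higher and 9 lower, with a median of -0.25, and 5 were called lower without vehicle replicate 2. At the deposited scaling 14 were called higher and 2 lower. Msrb2, a mitochondrial methionine sulfoxide reductase, was at 5.04 and 4.22 CPM in HDT and 12.1 and 13.0 CPM in vehicle (-1.44), and Msra and the selenium carrier Selenop had log2 fold changes of -0.76 and -0.69. Of 11 other NRF2 regulators, 2 were called higher and 3 lower (10 and 0 at the deposited scaling). The related factor Nfe2l3 was at 15.1 and 12.9 CPM in HDT and 6.28 and 6.30 CPM in vehicle (1.15), and Mafg, a small MAF partner of NRF2, had 0.45. Rbx1, a ligase subunit that acts with KEAP1, had -0.34 with TMM and 0.19, called higher, at the deposited scaling (limma adjusted p = 0.0404).

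**Figure D5:**
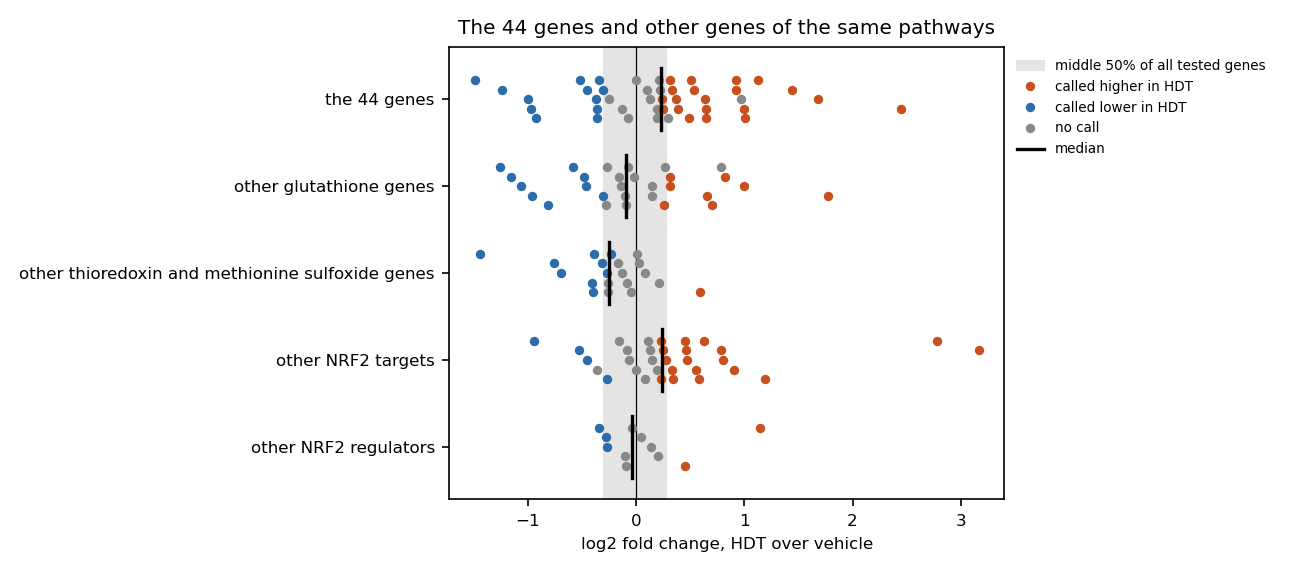
Log2 fold change of each tested gene, HDT over vehicle, for the 44 genes and 4 lists of other genes of the pathways, coloured by limma call, with the median of each list and the middle 50% of all tested genes in grey. The medians with TMM are 0.23, -0.09, -0.25, 0.24 and -0.04 from top to bottom.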

How the data were processed

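RNA of 4 stomach corpus libraries, 2 HDT and 2 vehicle, was analysed. STAR 2.7.1a, featureCounts, Subread 2.0.0 and edgeR are named, with GRCm38 and mm10, in the submitters' processing notes. No source used here gives the annotation, strand setting or normalization. The values the authors deposited are a signal, normalized gene counts: each is a whole number of reads times a factor constant within a library, and after division by that factor, 100% of values above 0 were whole within 0.01. Genes were kept by filterByExpr on these reads, given the groups, which left 18285. Every kept gene had at least 10 reads in its highest library, but that was not the rule, and some genes reaching 10 were not kept. Values were divided by TMM-scaled library sizes and compared as log2(value + 1) by limma 3.58.1 with trend and robust moderation (two-sided, Benjamini-Hochberg over all tested genes, threshold 0.05, R 4.3.3). Much of each spread estimate was borrowed across genes (median prior degrees of freedom 5.87). The count tests of edgeR 4.0.16 and DESeq2 1.42.0 on recovered reads were alternatives; edgeR called 3358 genes higher and 3511 lower. The fit was tested on simulated data. Positions, exon lengths and transcripts are from GENCODE M21 (GRCm38), which may not be the authors' annotation; levels per kb use the union of a gene's exons. Shared words are 50-base stretches of a gene's transcripts also found in another gene's, either strand. The genes and lists were chosen with earlier results of these data known. Values per library are given for genes called with at least 2-fold change and the most abundant of each role; in other lists the 3 largest called changes at 5 CPM or more in the higher group are named.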

Additional observations from a re-analysis of the deposited data

How the results depend on the processing

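Scaling mattered most. With values as deposited, 11483 genes were called higher and 998 lower, against 3369 and 3520 with TMM; of the 44 genes 34 were higher and 5 lower, and of the other pathway genes 68 were higher and 8 lower. There the sign turned positive for Gpx1 (0.175), Gpx7 (0.165), Gsta1 (0.461), Gstm2 (0.175), Mgst3 (0.28), Txnip (0.011), Prdx2 (0.084), Prdx3 (0.229), Prdx6 (0.401) and Sod1 (0.195), because that setting lacks the TMM factors. Leaving out 1 library, with a lone library assumed to vary like the other group, gave between 16 and 25 of the 44 higher and between 9 and 13 lower. Its values ranged from -0.225 to 0.108 for Gsta1, from -0.012 to 0.231 for Gsto1, from -0.045 to 0.046 for Gstt1 and from -0.163 to 0.448 for Nqo1. Gstt1, at 0 within error, also changed sign with a filter of 1 CPM in 2 libraries (-0.003), edgeR (0.00) and DESeq2 (0.00). DESeq2 size factors and pseudocounts of 0.5 and 5 kept all 32 calls of the 44 genes in direction. The longer promoter consensus held in 10.5% of genes, against 23.7% for the core. Deviations of same-numbered libraries had a weak negative correlation over genes (-0.142), and the labels do not tie the numbers to shared mice, litters or days. With the replicate block 2359 genes were called higher and 2623 lower, 18 and 11 of them among the 44; Gpx7 (limma adjusted p = 0.0907), Txn1 (0.0582), Prdx1 (0.0617) and Keap1 (0.0767) lost their calls and Gsta3 gained one (0.00236). With crossed numbers, chosen after seeing the data, the counts were 4202 and 4323. With 2 mice a group, changes near 0.25 on the log2 scale lie at the edge of what is called.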

Other observations

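The following genes of the fixed pathway lists were singled out after their values were seen. Slc3a2, the heavy chain that pairs with the Slc7a11 product in the cystine transporter, was at 87.8 and 93.2 CPM in HDT and 135 and 135 CPM in vehicle (log2 fold change -0.58, limma adjusted p = 0.000254, and -0.05 without a call at the deposited scaling). With TMM, the genes of the transporter's subunits were called in opposite directions. Chac1 and Chac2, which degrade glutathione, were also lower, at log2 fold changes of -1.15 (limma adjusted p = 0.00516) and -0.48 (limma adjusted p = 0.00229), of which Chac2 was 0.05 at the deposited scaling. Ggt6 and Ggt5, of the gamma-glutamyl transferase family, were higher at low levels: 1.75 and 1.66 CPM of Ggt6 in HDT against 0.54 and 0.44 CPM in vehicle, and 7.93 and 7.83 CPM of Ggt5 in HDT against 4.66 and 4.24 CPM in vehicle. Of 3 listed genes whose products make NADPH, the cofactor of glutathione and thioredoxin reductases, G6pdx and Pgd were called higher and Me1 had no call. G6pdx was at 176 and 206 CPM in HDT and 111 and 109 CPM in vehicle (log2 fold change 0.79, limma adjusted p = 0.000239), and Pgd was at 374 and 433 CPM in HDT and 271 and 269 CPM in vehicle (0.58, limma adjusted p = 0.000952). Me1 was at 448 and 525 CPM in HDT and 487 and 394 CPM in vehicle, with overlapping groups (0.15, limma adjusted p = 0.389). The mitochondrial thioredoxin Txn2 and its reductase Txnrd2 had log2 fold changes of -0.39 (limma adjusted p = 0.00203) and -0.27 (limma adjusted p = 0.0262), in contrast to their cytosolic counterparts Txn1 and Txnrd1, which were called higher. At the deposited scaling Txn2 had 0.14 with no call, and Txnrd2 had 0.26 and was called higher (limma adjusted p = 0.0196). The Txn1 call was lost when either vehicle library was left out.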
